A study of Mus musculus with 18 samples.

Results

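The 10 genes described here are the textbook markers and drivers of the epithelial-mesenchymal transition (EMT). They were chosen by name, as the rows of the expression table listed as Cdh1, Cdh2, Vim, Fn1, Zeb1, Zeb2, Snai1, Snai2, Twist1 and Twist2, and all 10 were found among the 14521 named genes. Messenger RNA was sequenced from the skin of 6 female littermate SKH-1E mice, an outbred hairless strain prone to skin tumours under ultraviolet light, all chronically irradiated with solar simulators. Each mouse (numbers 2, 3, 7, 8, 9 and 10) gave 3 tissues, namely irradiated skin without a lesion (CHR), 1 papilloma (PAP, a benign outgrowth) and 1 squamous cell carcinoma of the skin (SCC), so that n = 6 in each group and every group carried the irradiation. Unirradiated skin was not analysed here. The lesions were of low histological grade, and the samples were pieces of tissue rather than sorted cells.

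EMT is a programme in which epithelial cells loosen their junctions and take on features of mesenchymal cells. E-cadherin (Cdh1) holds epithelial cells together, while N-cadherin (Cdh2), vimentin (Vim) and fibronectin (Fn1) are typical of mesenchymal cells, and the Zeb, Snai and Twist transcription factors repress Cdh1 or promote the mesenchymal state. In skin, vimentin, fibronectin and several of these factors are also made by fibroblasts, and vimentin and Zeb2 by leukocytes.

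Reads assigned to genes were recovered from the deposited values, and they summed to between 15.4 and 21.0 M in each library. Reads outside the counted genes are not in these sums, so the sums are below the number sequenced. Levels are given as normalised reads, that is reads divided by the size factor of the library. Fold changes are limma estimates on the log2(deposited value + 1) scale with the mouse as a block, and a gene was called when its p, adjusted over all 14521 genes, was under 0.05. The deposited scale has a floor near 39, so it understates the fold changes of genes with few reads. The carcinoma of mouse 10 held the lowest value of its group for 8 of the 10 members and its papilloma for 5, and values without this mouse are given where they change a call. The mouse was singled out by these low values, so fits without it are descriptive and not an independent check.

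In papillomas against non-lesional skin, 6 of the 10 members fell (Cdh2, Vim, Fn1, Zeb1, Zeb2 and Twist2) and 1 rose (Snai2). Over all genes 29.3% were called lower and 23.3% higher in this comparison. The median log2 fold change of the members was -0.67, against 0.00 over all genes. The 6 papilloma and 6 skin libraries did not overlap for 5 members (Vim, Fn1, Zeb1, Zeb2 and Snai2), and 33.6% of all genes had groups that did not overlap. In carcinomas against papillomas, 5 members rose (Vim, Zeb1, Zeb2, Snai1 and Twist2) and 1 fell (Snai2), where 8.75% of all genes were called higher and 1.1% lower. No member had groups that did not overlap between carcinoma and papilloma, and 0.413% of all genes did. In carcinomas against non-lesional skin, Snai2 was higher and Vim and Zeb2 were lower, and the other 7 members were not called. The background was 15.8% called higher and 22.7% called lower. The groups did not overlap for Zeb2 and Snai2, beside 19.7% of all genes. The comparisons share libraries (papillomas enter the first and the second), so a low papilloma value moves both.

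**Figure D1:**
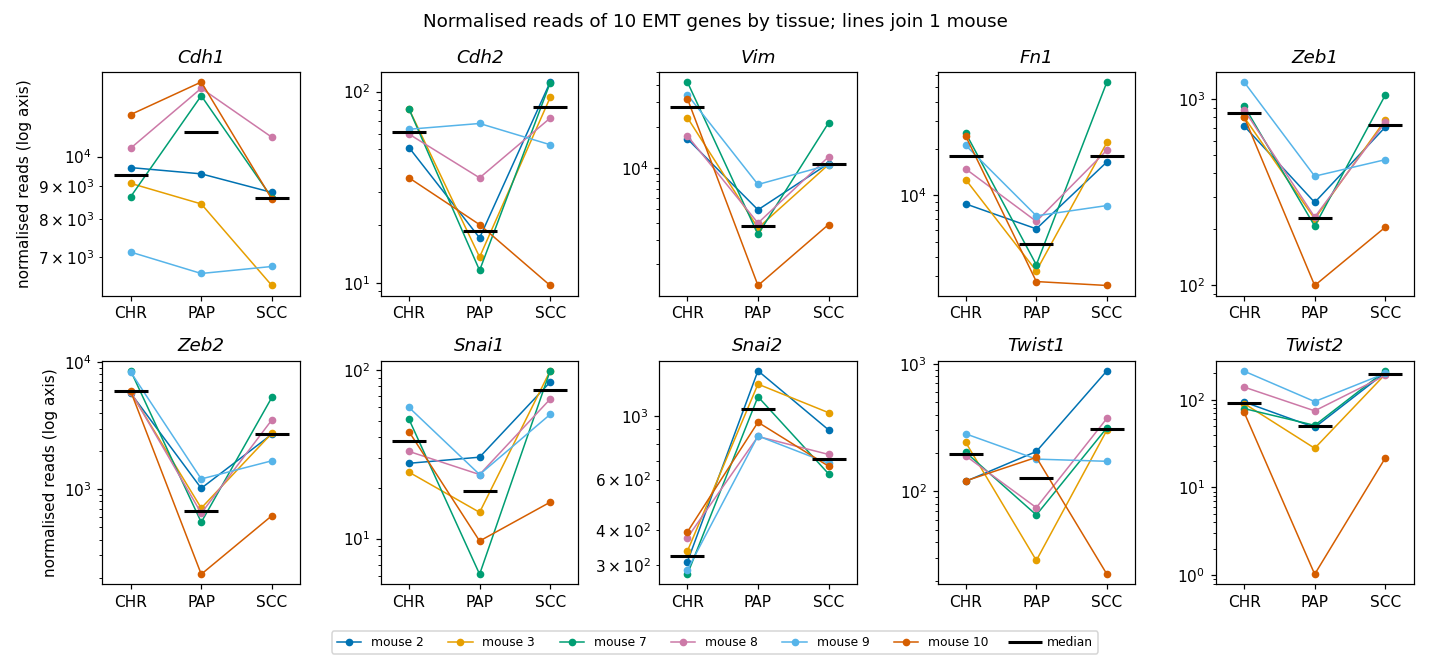
Normalised reads (log axis, separate range in each panel) of the 10 genes in CHR, PAP and SCC, with 1 point per library, lines joining the 3 libraries of a mouse and black bars for the group medians. Zeb2 fell in all 6 mice from CHR to PAP and Snai2 rose in all 6, and mouse 10 had the lowest SCC value for 8 members, all but Cdh1 and Snai2.

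**Figure D2:**
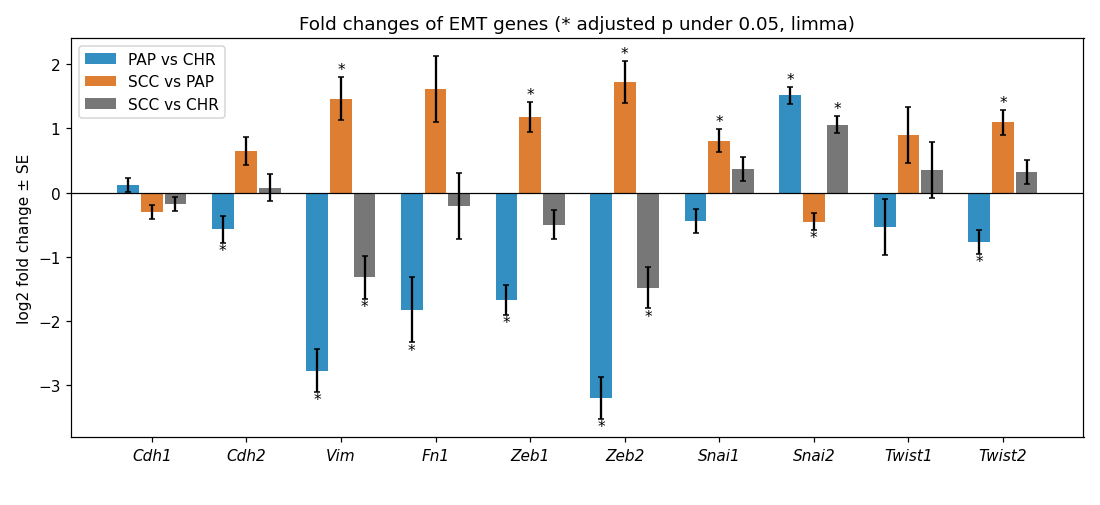
Log2 fold changes with standard errors of the 10 genes in the 3 comparisons (limma, mouse as block, 6 mice), with asterisks at an adjusted p under 0.05. Zeb2 and Vim have the lowest PAP against CHR values, -3.21 and -2.78, and Snai2 is the only member called higher there.

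Cdh1 (ENSMUSG00000000303.12, chr8:106603351-106670246, plus strand, GRCm38), the junction protein whose loss defines the transition, was not called in any comparison. Its normalised reads had a lowest value of 7127, a median of 9354 and a highest of 11603 in skin. In papillomas they ran from 6606 through 10903 to 13021, and in carcinomas from 6331 through 8622 to 10708. The 3 groups overlapped widely. The log2 fold change was 0.12 ± 0.11 (SE, adjusted p = 0.374) in papilloma against skin, -0.31 ± 0.11 (adjusted p = 0.104) in carcinoma against papilloma, with 5 of 6 mice lower, and -0.18 ± 0.11 (adjusted p = 0.214) in carcinoma against skin.

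Cdh2, the mesenchymal cadherin, was expressed at a low level. Its normalised reads ran from 35.4 to 81.0 (median 61.7) in skin, from 11.6 to 68.1 (median 18.7) in papillomas and from 9.67 to 112 (median 83.0) in carcinomas. The groups overlapped, and the carcinoma of mouse 10 held the lowest value of all 18 libraries. The fall in papilloma was called (-0.58 ± 0.22, adjusted p = 0.0384, 5 of 6 mice lower), but the call was lost without mouse 2, 3, 7 or 8, with adjusted p up to 0.126. In carcinoma against papilloma the value was 0.65 ± 0.22 (adjusted p = 0.075), and it was called without mouse 9 (0.82, adjusted p = 0.0396) or mouse 10 (0.84, adjusted p = 0.0225). With all mice, limma-voom on the recovered reads called it (1.52, adjusted p = 0.0479). Limma on the log2 of those reads did not (1.36, adjusted p = 0.107). The reads of Cdh2 for each 1000 of Cdh1 had medians of 7.36 in skin, 1.72 in papillomas and 10.3 in carcinomas, with ranges that overlapped.

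Vim (ENSMUSG00000026728.9, chr2:13573927-13582826, plus strand), the intermediate filament of mesenchymal cells, fell most in reads. Its normalised reads ran from 16291 to 42241 (median 27611) in skin, from 1395 to 7583 (median 3812) in papillomas and from 3876 to 21301 (median 10680) in carcinomas. Skin and papilloma did not overlap, while carcinomas overlapped with both. The fold change was -2.78 ± 0.33 in papilloma against skin (adjusted p = 2.1e-05), 1.46 ± 0.33 in carcinoma against papilloma (adjusted p = 0.0194) and -1.32 ± 0.33 in carcinoma against skin (adjusted p = 0.00796). All 6 mice moved in the stated direction in each of the 3 comparisons.

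Fn1 (ENSMUSG00000026193.15, chr1:71585520-71653200, minus strand), which encodes the matrix glycoprotein fibronectin, fell in papillomas and varied widely in carcinomas. Its normalised reads ran from 8781 to 25159 (median 17875) in skin, from 2768 to 7359 (median 4807) in papillomas and from 2611 to 53797 (median 17975) in carcinomas. Papilloma and skin did not overlap. The fall was -1.83 ± 0.51 (adjusted p = 0.00933, 6 of 6 mice). Carcinoma against papilloma gave 1.62 ± 0.51 (adjusted p = 0.0646, 5 of 6 mice higher), and without mouse 10 it gave 1.96 (adjusted p = 0.0125). Carcinoma against skin gave -0.21 ± 0.51 (adjusted p = 0.775), and the sign turned without mouse 10 (0.38, adjusted p = 0.516).

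Zeb1 and Zeb2, zinc finger repressors of Cdh1, both fell in papillomas without overlap. Zeb1 had 719 to 1238 normalised reads (median 841) in skin, 99.8 to 386 (median 230) in papillomas and 205 to 1053 (median 731) in carcinomas. Its fold change was -1.68 ± 0.23 (adjusted p = 5.9e-05) in papilloma against skin and 1.18 ± 0.23 (adjusted p = 0.0119) in carcinoma against papilloma. In carcinoma against skin it was -0.50 ± 0.23 (adjusted p = 0.102). Zeb2 (ENSMUSG00000026872.17, chr2:44983632-45117395, minus strand) had 5709 to 8554 normalised reads (median 5881) in skin, 213 to 1201 (median 676) in papillomas and 616 to 5272 (median 2726) in carcinomas. Its fold changes were -3.21 ± 0.32 (adjusted p = 5.5e-06), 1.72 ± 0.32 (adjusted p = 0.0106) and -1.49 ± 0.32 (adjusted p = 0.00336), in the same order of comparisons. Every mouse moved in those directions. The reads of Zeb2 for each read of Zeb1 had a median of 7.29 in skin, 2.94 in papillomas and 3.68 in carcinomas, and the skin range did not overlap with either lesion.

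Snai1 (ENSMUSG00000042821.7, chr2:167538195-167542814, plus strand), a repressor that binds E-box sequences, was among the least expressed members. Its promoter window in RefSeq (250 bases before to 50 after the start, GRCm38.p6) was searched because Snai and Zeb proteins bind such boxes, and it held 1 match, 126 bases before the start. The 30 bases around it lie at chr2:167538057-167538086 on the plus strand, and the capitals mark the box.
Snai1: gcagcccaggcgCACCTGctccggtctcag
The search was for CACCTG or CAGGTG, which are the same box on opposite strands. It covered the 8 windows of the 5 members in the RefSeq promoter table (Vim, Zeb2, Snai1, Twist1 and Twist2), and Snai1 alone held a match. Of all 32851 windows, 20.2% held one. The AP-1 motif, TGACTCA or TGAGTCA, was found in 1 of the 4 windows of Zeb2 and in 5.2% of all windows.

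Snai1 had 24.8 to 59.9 normalised reads (median 38) in skin, 6.15 to 30.4 (median 19.2) in papillomas and 16.4 to 98.9 (median 76.0) in carcinomas. It rose in carcinoma against papilloma in 6 of 6 mice, by 0.81 ± 0.19 on the log2 scale (adjusted p = 0.0194), where the ratio of mean normalised reads was 3.88. Papilloma against skin gave -0.45 ± 0.19 (adjusted p = 0.0577), and limma-voom on the recovered reads called it (-1.14, adjusted p = 0.0419). Carcinoma against skin gave 0.36 ± 0.19 (adjusted p = 0.14), and it was called without mouse 10 (0.54, adjusted p = 0.0346).

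Snai2 (ENSMUSG00000022676.7, chr16:14705852-14709385, plus strand), the Slug repressor, which basal keratinocytes also express, was the only member called higher in papilloma and in carcinoma against skin. It had 279 to 393 normalised reads (median 323) in skin, 850 to 1447 (median 1064) in papillomas and 629 to 1031 (median 710) in carcinomas. Every papilloma and every carcinoma lay above every skin library, while the lesions overlapped with each other. The rise was 1.51 ± 0.13 (adjusted p = 2.1e-06) in papilloma and 1.06 ± 0.13 (adjusted p = 8.9e-05) in carcinoma, in 6 of 6 mice each. Carcinoma was lower than papilloma in 6 of 6 mice (-0.46 ± 0.13, adjusted p = 0.0455), but this call was lost without any 1 mouse, with adjusted p from 0.0552 to 0.212.

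Twist1 (ENSMUSG00000035799.6, chr12:33957671-33959829, plus strand), a basic helix-loop-helix factor, was called in no comparison. It had 120 to 282 normalised reads (median 196) in skin, 28.8 to 205 (median 127) in papillomas and 22.4 to 880 (median 308) in carcinomas. The carcinoma of mouse 2 was the highest of the 18 libraries and that of mouse 10 the lowest. Without mouse 10 the rise from papilloma to carcinoma was called (1.40, adjusted p = 0.024), against 0.89 ± 0.44 (adjusted p = 0.23) with all mice. Twist2 (ENSMUSG00000007805.4, chr1:91801461-91848028, plus strand), its close relative, had 71.8 to 211 normalised reads (median 92.3) in skin, 1.03 to 95.1 (median 49.6) in papillomas and 21.7 to 213 (median 197) in carcinomas. The lowest papilloma value was 1 read, in mouse 10. Twist2 fell in papilloma (-0.77 ± 0.19, adjusted p = 0.00419) and rose in carcinoma against papilloma (1.09 ± 0.19, adjusted p = 0.01), in 6 of 6 mice each. Its papilloma call was lost after quantile normalisation (-0.29, adjusted p = 0.148) and without the mouse as a block (adjusted p = 0.0521). In carcinoma against skin it gave 0.32 ± 0.19 (adjusted p = 0.196), and without mouse 10 it was called (0.54, adjusted p = 0.0176).

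The carcinoma against papilloma calls depended on single mice. Without mouse 7 or without mouse 8 no member and no gene at all was called by limma (unadjusted, 2450 and 2594 genes had p under 0.05), and the same held when only papillomas and carcinomas entered the fit (2830 genes). The lowest limma adjusted p of any gene in these fits was 0.0537, 0.0794 and 0.0512, in that order, so some genes missed the threshold narrowly. The 5 rises kept their direction in all 6 fits without 1 mouse. Without mouse 10, 8 members were called higher, all but Cdh1 and Snai2, beside 10.9% of all genes. These are the same 8 members for which the carcinoma of mouse 10 was the lowest. Leaving it out raises their carcinoma means, so the count is not independent support.

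Per kilobase of exon, the order of the mean levels changed between tissues. In skin Vim was first with 5800 normalised reads per kilobase, followed by Cdh1 with 2055 and Fn1 with 1516. In papillomas Cdh1 was first with 2282, Vim had 873, Snai2 542 and Fn1 424. In carcinomas Vim had 2428, Cdh1 1817 and Fn1 1752. Cdh1 and Fn1 were not separated in skin or carcinoma, where Cdh1 was higher in 4 of 6 mice in each. Snai2 was the most expressed factor in both lesions (542 and 383 per kilobase) and Zeb2 in skin (336), while Snai1 and Cdh2 had the lowest means of the 10 members in every tissue. Snai1 was not separated from Twist2, which was higher in 4 of 6 mice in skin and in 3 of 6 in papillomas. In papillomas Snai2 was above Fn1 in 4 of 6 mice.

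Markers of cell types also changed between the tissues, and not all in the same direction. Beside their counts, 23.3% of all genes were called higher and 29.3% lower in papilloma against skin. The shares were 8.75% and 1.1% in carcinoma against papilloma, and 15.8% and 22.7% in carcinoma against skin. Of 12 dermal fibroblast markers, 10 fell and none rose in papilloma, 5 rose in carcinoma against papilloma, and 2 fell in carcinoma against skin. Their summed normalised reads ran from 153190 to 335006 in skin, from 6447 to 184704 in papillomas and from 21397 to 539629 in carcinomas, and none of the 12 was at 0 in any library. All 12 leukocyte markers fell in papilloma and in carcinoma against skin, and 8 rose in carcinoma against papilloma. Their sums ran from 24792 to 41867 in skin, from 1588 to 8662 in papillomas and from 4818 to 32917 in carcinomas, also with none at 0. Of 12 keratinocyte markers, 8 rose and 1 fell in papilloma, 3 fell and none rose in carcinoma against papilloma, and 6 were higher and 2 lower in carcinoma against skin. Their sums ran from 387735 to 786148 in skin, from 564484 to 1133771 in papillomas and from 219512 to 820909 in carcinomas. All 10 skeletal muscle markers fell in both lesions against skin and 9 rose in carcinoma against papilloma, with medians of summed reads of 445551, 708 and 108411 in skin, papillomas and carcinomas. In bulk tissue fewer cells of a type and less RNA per cell cannot be told apart. The part of these cell types in the fold changes of the members was not tested by a separation of cells.

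**Figure D3:**
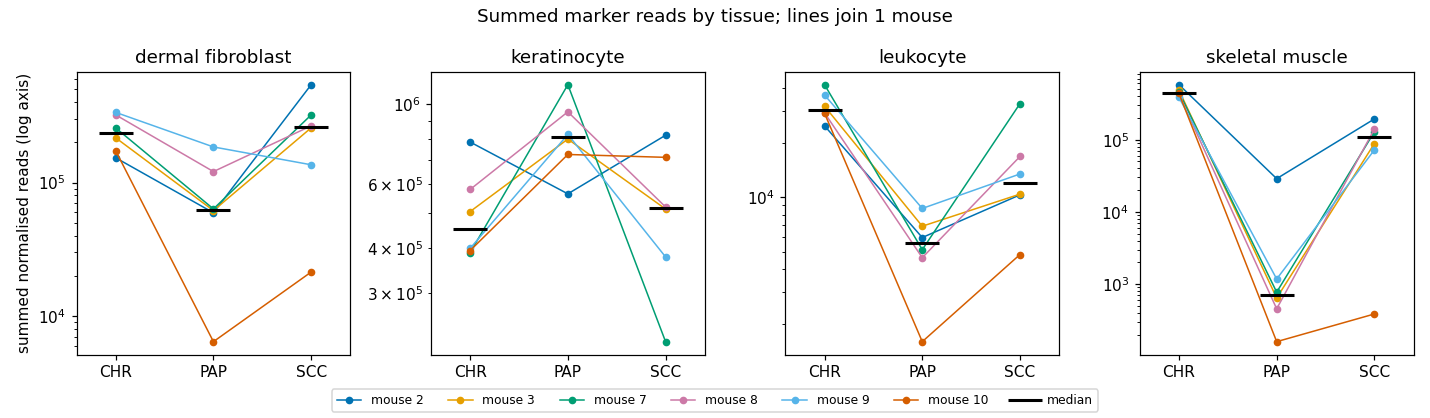
Summed normalised reads (log axis, separate range in each panel) of the dermal fibroblast, keratinocyte, leukocyte and skeletal muscle markers in each library, with lines joining the libraries of a mouse and black bars for medians. CHR, PAP and SCC had median fibroblast sums of 236146, 62591 and 261211, and mouse 10 had the lowest fibroblast, leukocyte and muscle sums of both lesion groups.

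A fit with the mean fibroblast marker level of each library as a covariate gave other counts. In papilloma against skin, 3 members were called (Snai2 higher, Vim and Zeb2 lower), beside 10.5% of all genes. Snai2 gave 1.68 ± 0.23 (adjusted p = 0.00171), Vim -1.27 ± 0.32 (adjusted p = 0.0255) and Zeb2 -1.80 ± 0.34 (adjusted p = 0.00672). Fn1 (0.39 ± 0.55), Cdh2 (0.06 ± 0.33) and Twist2 (0.03 ± 0.21) were no longer below 0, and Zeb1 gave -0.66 ± 0.23 (adjusted p = 0.0965). Carcinoma against skin then had 5 members called, beside 31.5% of all genes. Snai2 (1.10 ± 0.14), Snai1 (0.54 ± 0.16) and Twist2 (0.54 ± 0.13) were higher, and Vim (-0.91 ± 0.20) and Zeb2 (-1.10 ± 0.21) lower. No gene was called between carcinoma and papilloma (1029 at an unadjusted p under 0.05). With the keratinocyte marker level as the covariate, 4 members were lower in papilloma than in skin (Vim, Zeb1, Zeb2 and Twist2) and Snai2 was higher. Over all 14521 genes, 3830 were called lower and 2730 higher in this fit. Fn1 (-0.94 ± 0.53, adjusted p = 0.165) and Cdh2 (-0.43 ± 0.27, adjusted p = 0.217) were not called. The fibroblast covariate itself differed between the groups, so the group and the marker level are only in part separable. Its lowest values (mean log2) were those of the papilloma (8.29) and carcinoma (9.88) of mouse 10, where the other lesions had 10.7 to 13.5. No covariate fit was made without mouse 10, so its weight in these values was not tested.

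**Figure D4:**
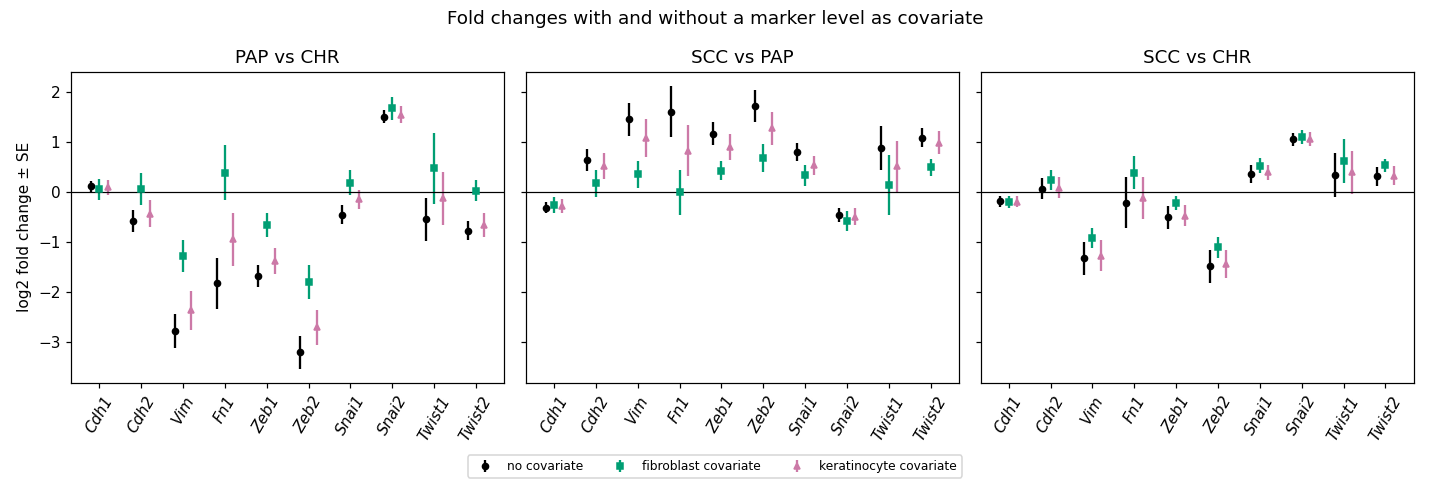
Log2 fold changes with standard errors of the 10 genes without a covariate (circles), with the fibroblast marker level (squares) and with the keratinocyte marker level (triangles) in the 3 comparisons. In PAP against CHR, Snai2 stays near 1.5 to 1.7 in the 3 fits, while Fn1 moves from -1.83 to 0.39 with the fibroblast level.

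Ratios to the marker sums, taken within each mouse, describe the same data without a test. Vim per leukocyte marker read differed by a mean log2 of -0.11 ± 0.47 (SD, n = 6) between papilloma and skin, and Zeb2 by -0.67 ± 0.19, lower in 6 of 6 mice. Vim per fibroblast marker read differed by -0.96 ± 0.91 between carcinoma and skin and was lower in 6 of 6 mice, as was Zeb2 (-1.16 ± 0.94). Per leukocyte marker read, Vim (0.02 ± 0.54) and Zeb2 (-0.18 ± 0.54) were each higher in carcinoma in 3 mice and lower in 3. Snai2 per keratinocyte marker read was higher in papilloma in 6 of 6 mice (0.98 ± 0.91) and in carcinoma in 5 of 6 (1.24 ± 0.71). Cdh1 per keratinocyte marker read was lower in papilloma than in skin in 5 of 6 mice (-0.61 ± 0.58). Between carcinoma and skin that ratio differed by -0.16 ± 0.71, lower in 3 mice. Per fibroblast (2.16 ± 1.47) and per leukocyte marker read (2.83 ± 0.98), Cdh1 was higher in papilloma than in skin in 6 of 6 mice.

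The genes whose profile over the 18 libraries lay nearest to each member, by the root-mean-square distance of centred log2 values, differed between members. For Vim they were Tlr13, Ctsz and Laptm5 (distances 0.24 to 0.26, where Vim itself varied by 1.31), and Laptm5 is one of the leukocyte markers. For Zeb2 they were Adcy7, Fcgrt and Clmp (0.22 to 0.25, own spread 1.48). For Fn1 they were Timp1, Thbs3 and Pdgfrl (0.41 to 0.44, own spread 1.21). For Snai2 they were Sgol1, Ccnf and Mki67 (0.20 to 0.24, own spread 0.67), of which Mki67 is a marker of dividing cells. For Zeb1 they were Sec16b, Pth1r and Pde1a (0.18 to 0.19, own spread 0.85). The nearest to Twist1 were B3gnt9, Chpf and Gng11, to Snai1 AI597468, Hdx and Tmem200a, to Cdh2 Slc2a10, Rpl39l and Zbed3, and to Cdh1 Slc25a42, Stambp and Tet3.

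The other genes of the pathway were read from lists of related function. Over all genes, 23.3% were called higher and 29.3% lower in papilloma against skin, and 15.8% and 22.7% in carcinoma against skin. In carcinoma against papilloma the shares were 8.75% and 1.1%. Of 19 measured junction and polarity genes, 9 rose and 4 fell in papilloma. P-cadherin (Cdh3) rose by 1.96 ± 0.24 (adjusted p = 2.6e-05), with the desmosomal genes Jup (0.90) and Dsp (0.66), while Tjp3 (-1.56), Epcam (-1.30) and occludin, Ocln (-1.25), fell. In carcinoma against papilloma 2 fell (Dsp, -0.89, and Crb3, -0.40) and none rose, and against skin 3 rose and 4 fell, led by Cdh3 (1.68) and Cldn1 (-1.91). Of 15 regulators that hold cells epithelial, 9 rose and 1 fell in papilloma, led by Elf3 (1.84), Klf5 (1.60) and Trp63 (1.41), the basal keratinocyte factor, with Cebpa lower (-0.91). None was called in carcinoma against papilloma, and 5 were higher and 1 lower against skin.

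Among 22 other EMT factors and partners, 6 rose and 7 fell in papilloma, with the mesenchymal factor Prrx1 at -2.15 ± 0.38 and Foxc1 at -1.77 ± 0.44. These counts lie near the shares over all genes, 23.3% higher and 29.3% lower. Between papilloma and carcinoma 4 rose and none fell, led by Prrx1 (1.76 ± 0.38, adjusted p = 0.0165). Hmga2 was higher in carcinoma than in skin (1.46 ± 0.48, adjusted p = 0.028), among 4 higher and 4 lower. The shares over all genes in that comparison were 15.8% higher and 22.7% lower. Of 15 genes of the TGF-beta arm, which induces EMT, 6 rose and 4 fell in papilloma, and the falls lie near the share over all genes. The activin subunit Inhba (1.26), Ltbp1 (1.20) and the inhibitor Smad7 (0.99) rose, and the receptors Tgfbr3 (-2.09) and Tgfbr2 (-1.16) fell. Between papilloma and carcinoma Tgfbr1 rose (0.52) and Smad4 fell (-0.48), and against skin 3 rose and 2 fell.

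The 26 mesenchymal and invasive-front effectors divided in papilloma, with 10 higher and 10 lower, beside 23.3% and 29.3% of all genes. The protease Mmp9 (2.72 ± 0.44) and the laminin chain Lama3 (2.39 ± 0.27) rose, and the collagen cross-linking enzyme Lox (-2.78 ± 0.60), Mmp2 (-2.61 ± 0.42) and S100a4 (-2.08 ± 0.33) fell. In carcinoma against papilloma 10 rose and none fell, led by Lox (2.73), Mmp2 (2.01) and Spp1 (1.99). Against skin, 12 were higher in carcinoma and 1 lower. Mmp9 (2.60) and the matrix protein Tnc (1.90) were higher, and Fap, made by activated fibroblasts, was lower (-0.998). The median of this list was 0.53 in carcinoma against skin, beside -0.02 over all genes and -0.05 over the 10 members.

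In a mixed model with the mouse as random effect, which sorts genes by the step at which they change, Vim, Zeb2 and Snai2 were in the early class, that is different from skin in papilloma and, in the same direction, in carcinoma, with no further change that way from papilloma to carcinoma. The other 7 members were in no class, and 41.1% of all genes were early. Without mouse 7, Zeb1 was also early, and without mouse 10, Snai1 and Twist2 were late.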

How the data were processed

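RNA of 18 libraries was sequenced on the Illumina HiSeq platform. The authors aligned reads to mm10 with MOSAIK, counted them per gene with HTSeq and applied a size factor and a variance stabilising transformation, and versions, annotation release and strand setting are not given in the sources used here. Reads of antisense genes therefore cannot be told apart. The deposited values are this score on a linear scale, rounded to whole numbers. The paper also describes a batch correction of the transformed counts, and whether the deposited values carry it was not established here. The deposited values were inverted with a zero level of 39.12, and 99.6% of values came out as whole reads (size factors 0.835 to 1.175). In simulated libraries of 14542 genes the size factors came back within 0.486%; normalised reads depend on the zero level alone. Depth limits precision most for members with few reads. The 21 entries with a number in place of a symbol, at most 0.241% of the recovered reads of a library, were left out.

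Groups and mouse numbers came from the titles. The tests were limma 3.58.1 (R 4.3.3) on log2(value + 1), all 18 libraries, mouse as block, Benjamini-Hochberg over 14521 genes, and a mixed model with unadjusted p under 0.05. The same mouse gave each trio. Deviations from group means of same-mouse pairs correlated by a median of 0.10 (18 pairs, -0.24 to 0.51) and of different mice by 0 (90 pairs). In simulated PAP against CHR data for 14521 genes, 69.4% of 2-fold and 98% of 4-fold changes were recovered, and 5.6% of calls were false. The simulation changed 200 genes with a mean of at least 10 normalised reads. It used 1 fixed spread for all genes and no mouse effects, so these rates are not those of the real data. The members and lists were chosen with earlier results of these data known. All members were named, with up to 3 called genes with the largest rise and 3 with the largest fall from each pathway list and comparison, and the 3 nearest genes of each member; the marker lists are given by counts and sums, and some genes that this rule names are not reported here. Alternatives were no block, limma-voom, recovered reads, another pseudocount, a low-read filter, 2 normalisations, 2 groups only, 2 marker covariates and each mouse left out. Gene positions and exon lengths are from GENCODE M21 (GRCm38), and promoters from RefSeq (GRCm38.p6).

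Of the marker lists, counts higher and lower in PAP against CHR, SCC against PAP and SCC against CHR were, for 10 endothelial genes, 1 and 6, 5 and 0, 2 and 1, for 7 pericyte and smooth muscle genes, 0 and 4, 5 and 0, 1 and 1, for 8 adipocyte genes, 0 and 7, 0 and 0, 0 and 7, for 6 Schwann cell genes, 0 and 4, 1 and 0, 0 and 3, and for 4 melanocyte genes, 0 and 0, 0 and 0, 0 and 2. In the same order, the shares over all genes were 23.3% and 29.3%, 8.75% and 1.1%, and 15.8% and 22.7%.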

Additional observations from a re-analysis of the deposited data

Results flagged for a closer look

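The carcinoma of mouse 10 stood apart from the other 5 carcinomas in Twist2. It had 21.7 normalised reads where the others had 189 to 213, and the gap to the nearest library was 0.927 of the range of the group on the log2 scale, above Dixon's 95% critical value for 6 samples. Of 30 groups looked at (10 members in 3 tissues) this was the only one. Chance gives about 1 flag in every 20 groups, so the count of 1 flag in 30 groups is not more than chance gives. This count takes no account of the size of the gap, 0.927. The 30 groups are also not independent, because the 10 members were read from the same libraries. The count therefore cannot decide whether this value arose by chance. In the same carcinoma of mouse 10 the fibroblast marker sum was the lowest of the carcinomas, 21397 reads. The part of this in the value was not tested.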

How the results depend on the processing

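Without the replicate block, 810 genes were called in carcinoma against papilloma (1430 with it), with 0 members lower since Snai2 lost its call (adjusted p = 0.0675), and Twist2 lost its calls in papilloma against skin (adjusted p = 0.0521) and carcinoma against papilloma (adjusted p = 0.0524); Snai1 gained one in papilloma against skin (adjusted p = 0.0461), and no other member call changed. In carcinoma against papilloma 0 genes and 0 members were called with 2 groups only or with either marker covariate (unadjusted limma p was under 0.05 for 2830, 1029 and 2362 genes), and 0 members were lower on the recovered reads and after quantile normalisation. With limma-voom, calls were gained by Snai1 in papilloma against skin (adjusted p = 0.0419) and by Cdh2 in carcinoma against papilloma (adjusted p = 0.0479). With the fibroblast covariate 1527 genes and 2 lower members were called in papilloma against skin. In carcinoma against skin 3 members were higher with that covariate and after quantile normalisation. Leaving out 1 mouse gave 6545 to 7319 genes in papilloma against skin with 5 to 6 members lower, 0 to 1995 in carcinoma against papilloma with 0 to 8 members higher and 0 lower, and 4214 to 5482 in carcinoma against skin with 1 to 3 members higher, and 3 to 4 early and 0 to 2 late members.

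Signs turned with the fibroblast covariate in papilloma against skin for Cdh2 (0.06), Fn1 (0.39), Snai1 (0.19), Twist1 (0.48) and Twist2 (0.03), and for Fn1 in carcinoma against papilloma (0.00) and against skin (0.39). Snai1 turned to 0.09 after quantile normalisation. In carcinoma against skin, leaving out 1 mouse gave -0.04 to 0.21 for Cdh2, -0.05 to 0.66 for Twist1 and -0.47 to 0.38 for Fn1. The cause was not tested. Quantile normalisation and equal library medians moved the median of all genes in papilloma against skin to 0.16 and 0.14, and the split from 3388 higher and 4251 lower to 5339 and 3211, and to 4893 and 3587. In carcinoma against skin the split of 2291 and 3292 became 3667 and 2680, and 3105 and 2810, and in carcinoma against papilloma 1270 and 160 became 709 and 326, and 1065 and 284. Cdh2 lost its papilloma call under both (-0.05 and -0.44), and quantile normalisation also ended the papilloma call of Twist2 (-0.29) and the carcinoma against papilloma call of Snai1 (0.53, adjusted p = 0.0618).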
